A study of Chelonus formosanus with 6 samples.

Results

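Assembly cluster DN26448 is a group of 14 unigenes that the assembler placed together in the head transcriptome of the wasp Chelonus formosanus, and 4 of them are described here in detail. These 4, out of 41986 unigenes in all, were chosen by their measured counts, since each was higher in female than in male heads, so their difference between the sexes is given as a description, with no test. They are an odorant receptor 13a-like unigene (TRINITY_DN26448_c0_g5), an odorant receptor 22c-like unigene (TRINITY_DN26448_c0_g4), a unigene named olfactory receptor 9 (TRINITY_DN26448_c0_g11) and a glutathione S-transferase (TRINITY_DN26448_c0_g1). The other 10 unigenes of the cluster, written below by their last part (g2 to g14), were not picked for this difference one by one, and those with enough counts were tested.

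Poly(A) RNA of whole heads at day 1 was sequenced in 3 female and 3 male libraries. The labels give sex, tissue and day as the properties of a library, and name no treatment, strain or rearing condition. They do not say whether a library is 1 animal or a pool, and p-values here speak of library-to-library spread alone, which may be technical. The series was made to pick reference genes for PCR assays, and the libraries allow the sexes to be compared. In bulk heads a smaller number of cells of a type and less RNA per cell cannot be told apart.

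Odorant receptors of insects are membrane proteins of the olfactory neurons, which lie mostly in the antennae. A receptor that recognises odorants is paired with the coreceptor Orco, and together they form a ligand-gated ion channel. The family grows by gene duplication, and in many insects its members lie in tandem arrays of close copies, so that a short-read assembly may join, split or merge them. Glutathione S-transferases attach glutathione to reactive or foreign compounds, and in moths one of them is known from the antennae. Trinity, the assembler used, puts transcripts that share sequence into a common cluster, and a unigene is the longest transcript of what it takes for a gene. A place in the cluster therefore records shared sequence in the assembly, not a position in a genome, which was not used here.

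Transcripts that a head would hold were present, and lists named for other tissues, given further below, had counts too. The 11 unigenes with opsin in their description, light receptors and proteins named after them, summed to between 7623 and 8295 CPM (counts per 1000000, scaled by library total and TMM factor) in females and between 7225 and 8449 CPM in males. Of these 11, 2 had their best hit in a mammal. Orco was present in all 6 libraries. Of all 41986 unigenes, 9984 had their best hit in a mammal, and their origin was not examined. The shares over all unigenes given below were taken without leaving them out. Libraries held between 17937367 and 19517856 counts, and the low male values below rest on a few reads.

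The odorant receptor 13a-like unigene g5 had almost all of its reads in the female libraries. It had 658, 513 and 465 counts in females 1 to 3 and 3, 1 and 3 counts in males 1 to 3. Summed, this was 1636 counts against 7, a ratio of 224 after scaling for library size, with an exact 95% counting interval of 109 to 558. Every female library lay far above every male library, and female 1 was the highest of the females at 36.1 CPM, against 26.9 and 23.2 CPM in the other two. The male value is thus set by 7 reads, and the fitted log2 difference of 7.74 (standard error 0.31) depends on how such small counts are smoothed. Counts of g5 were whole numbers in all 6 libraries, which is what an estimate gives when no read is shared with another unigene.

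The odorant receptor 22c-like unigene g4 was the most abundant receptor of the cluster in both sexes. It had 692, 745 and 598 counts in females and 42, 52 and 64 counts in males. In CPM it stood at 35.6 ± 5.09 in females and 2.87 ± 0.575 in males (each a mean ± SD of n = 3), a 12.4-fold difference (log2 3.63, standard error 0.17). The sexes did not overlap, the lowest female being 29.8 CPM and the highest male 3.42 CPM. In contrast to g5, this receptor was also read repeatedly in males, where no library had under 42 counts. Its counts too were whole in all 6 libraries.

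Olfactory receptor 9, named after a receptor of the braconid wasp Microplitis mediator, was much rarer. Its unigene g11 had 58.4, 46.0 and 49.0 counts in females and 3, 1 and 2 counts in males. The summed ratio was 24.5 (counting interval 11.0 to 67.7), and the fitted log2 difference was 4.54 (standard error 0.40). The groups did not overlap, but the male side again rests on single reads. The value in female 1 was not whole, so a read there was divided with another unigene.

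The glutathione S-transferase g1 was the member with the smallest difference and the highest level in males. It had 1059, 1100 and 1030 counts in females and 306, 276 and 365 in males, or 55.7 ± 3.85 and 17.2 ± 2.06 CPM. That is a 3.24-fold difference (log2 1.70, standard error 0.11), with no overlap between the sexes. Its estimated counts were not whole in any of the 6 libraries, so some of its reads were divided between g1 and other unigenes. The deposited annotation gives it a glutathione S-transferase domain and the orthology entry prostaglandin-H2 D-isomerase / glutathione transferase, and its best hit is a protein of the ant Ooceraea biroi.

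**Figure D1:**
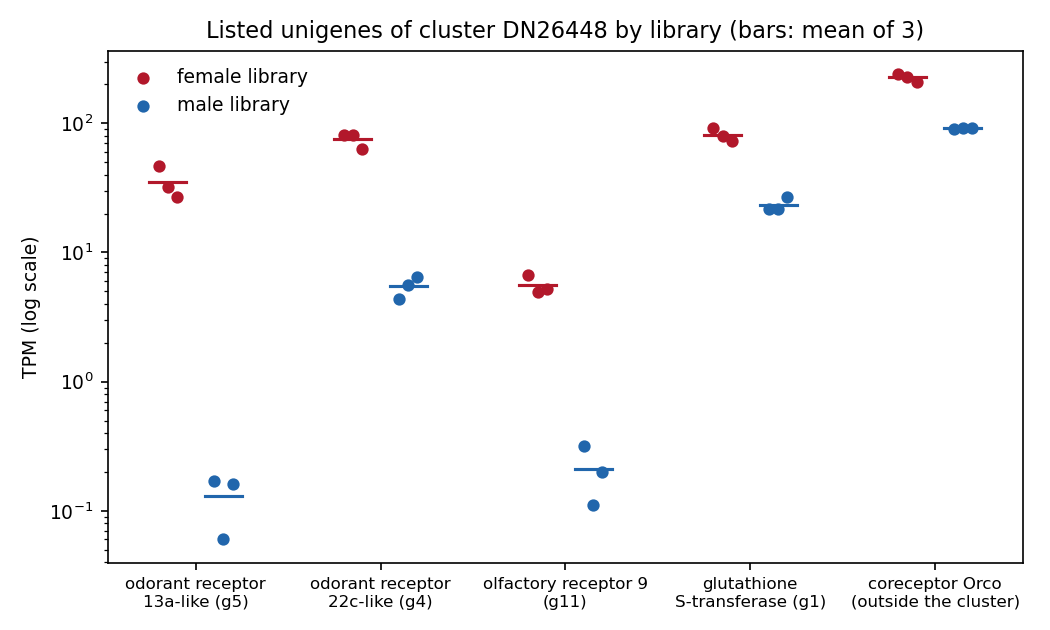
TPM of each library on a log axis for the 4 listed unigenes and, for scale, the coreceptor Orco, with female libraries in red and male libraries in blue and the mean of 3 as a bar. The sexes are apart in all 5 unigenes, from 0.06 to 0.17 TPM in males against 27.0 to 46.5 TPM in females for the odorant receptor 13a-like unigene, to 90.7 to 91.8 against 209 to 241 TPM for Orco.

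Levels of different unigenes can be ordered only per length, which TPM (transcripts per 1000000) provides. In females the transferase g1 at 81.3 ± 9.56 TPM and g4 at 75.0 ± 10.1 TPM overlapped, and in female 2 the order was turned, with 80.1 TPM for g1 and 81.2 TPM for g4. The 13a-like receptor g5 followed at 35.2 ± 10.1 TPM, below both in every female library, and g11 at 5.63 ± 0.961 TPM. In males g1 led alone at 23.3 ± 2.94 TPM, g4 had 5.49 ± 1.03 TPM, and g11 and g5 had 0.21 ± 0.105 and 0.13 ± 0.0608 TPM. These last values overlapped and came from 1 to 3 reads per library. The proportions among the receptors differed between the sexes too. In TPM g5 was 57.7%, 39.5% and 42.7% of g4 in females 1 to 3 and 3.86%, 1.07% and 2.48% in males 1 to 3.

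Set against all odorant receptors, g4 had the highest TPM in each female library. In counts it did not lead. An odorant receptor 13a-like unigene of another cluster (TRINITY_DN26229_c1_g14, 1456 bases long against 781 for g4) had 1241, 1049 and 910 counts in females 1 to 3. The list held 138 unigenes with the words odorant receptor, olfactory receptor or putative chemoreceptor in their description. Of the 130 outside the cluster, 2 had their best hit in a mammal. By TPM g4 ranked 1 in each female library and 26, 13 and 7 in males 1 to 3. The g5 unigene ranked 3, 5 and 6 in females and between 133 and 134 in males, and g11 between 33 and 45 in females and between 130 and 131 in males. The 8 unigenes of the cluster described as receptors held 17.6%, 16.6% and 15.4% of all receptor TPM in females 1 to 3 and 2.82%, 2.99% and 3.73% in males 1 to 3. The g4 unigene alone held between 8.47% and 9.87% of all receptor TPM in females and between 1.09% and 1.74% in males. The receptors outside the cluster were also higher in females as a sum, at 633 to 729 TPM against 357 to 392 TPM. No test was made on these shares, because they contain the picked unigenes.

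**Figure D2:**
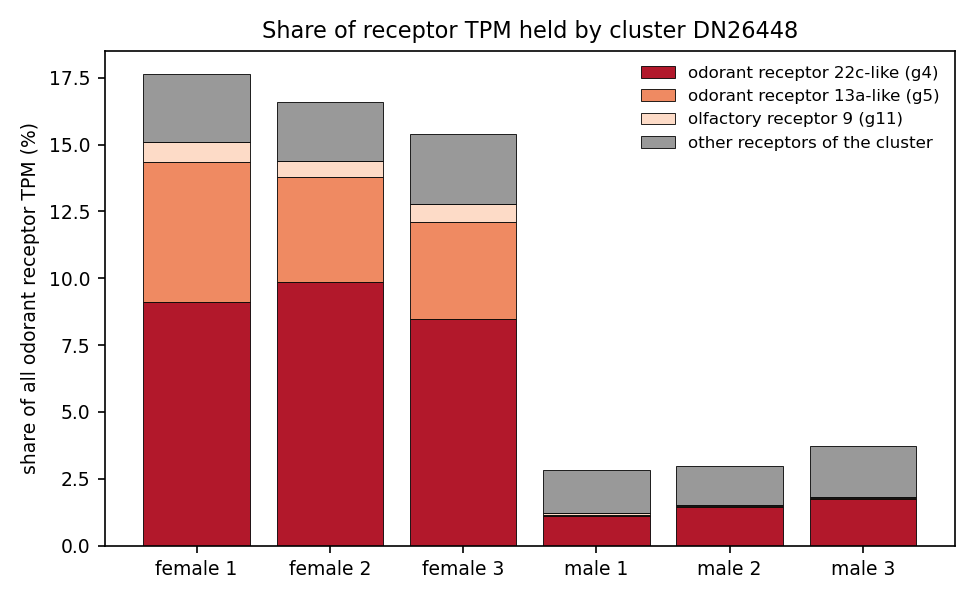
Stacked bars show, for each library, the percentage of the TPM of all 138 odorant receptor unigenes that belongs to receptors of cluster DN26448, split into the 3 listed receptors and the other receptors of the cluster. The bars reach 15.4% to 17.6% in female libraries and 2.82% to 3.73% in male libraries, and the odorant receptor 22c-like unigene is the largest part in each female library.

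Orco gives a scale within each library, as it is the common partner of these receptors. Its unigene (TRINITY_DN25907_c2_g3) had 394, 377 and 332 CPM in females and 157, 157 and 157 CPM in males, 2.35-fold higher in females (adjusted p = 1.06e-05, edgeR's quasi-likelihood test). Per 100 TPM of Orco, g4 stood at 33.5, 35.2 and 30.3 TPM in females 1 to 3 and at 4.85, 6.12 and 7.06 TPM in males 1 to 3. For g5 the values were 19.3, 13.9 and 12.9 TPM in females and 0.187, 0.0653 and 0.175 TPM in males. The transferase g1 had 38.0, 34.8 and 34.7 TPM per 100 of Orco in females and 23.8, 23.5 and 29.3 TPM in males. All 3 therefore stayed apart by sex when read relative to Orco, by a smaller margin for g1 than for the receptors. Female 1 had the highest Orco level and the highest g5 level of the females.

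The other 10 unigenes of the cluster also had more counts in females. All 14 unigenes of the cluster had a higher mean CPM in females, where 50.0% of all tested unigenes had a fitted difference above 0. In 12 of them every female library lay above every male library, a pattern found in 8.77% of the 21196 unigenes tested in the series (8.5% had it the other way round), and the 4 listed unigenes are among these 12 by choice. The 12 also include g9, which was not tested, and among the tested unigenes not listed 7 of 8 had the pattern. Of the 10 that were not listed, 8 passed the filter on low counts, and 5 of these 8 were higher in females at an adjusted p under 0.05 (edgeR's quasi-likelihood test over all 21196 unigenes), where 1.69% of all tested unigenes were higher in females and 2.8% passed in either direction. None of the 8 was higher in males by edgeR (0 at an unadjusted p under 0.05, 0 by DESeq2), against 1.11% of all. The median log2 difference of the 8 was 1.83, beside 0.00 over all tested unigenes. The cluster came to attention through its large differences, and 5 of its 12 tested unigenes had fewer than 10 counts in every male library and so passed the filter through the females, among them 2 of the 5 calls. The count is thus no independent sign of a shared direction.

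The calls with a solid count in both sexes were 3 receptors. A second unigene named olfactory receptor 9 (g3) had 78, 62 and 75 counts in females and 21, 20 and 17 in males (3.54-fold, log2 1.82 with standard error 0.24, adjusted p = 0.00187). Its closest described fly protein is odorant receptor 13a, as for g5, while g11 has no such entry. Olfactory receptor 4 (g7) had 82, 68 and 86 against 24, 13 and 26 counts (3.59-fold, adjusted p = 0.00358). The odorant receptor 67c-like unigene g8 had 137, 106 and 123 against 43.1, 33.0 and 48.3 counts (2.84-fold, adjusted p = 0.00248). Estimated counts of g8 were not whole in any of the 6 libraries, so some of its reads were divided with other unigenes. Those of g3 and g7 were whole in all 6. In these 3 the lowest female library was above the highest male one, and males kept a clear level of each. Both unigenes of the cluster that carry the name olfactory receptor 9 were thus higher in females, g11 with its ratio of 24.5 and g3 with 3.55, given side by side with no test of the difference, as g11 was picked for its own and rests on 6 male reads.

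The remaining calls were on low counts. An uncharacterized protein with the odorant receptor domain (g12) had between 17.7 and 35.7 counts in females and between 2.30 and 6.40 in males (5.01-fold, adjusted p = 0.0318). A second odorant receptor 13a-like unigene (g13) had between 16.0 and 18.7 against 2 to 6 counts (3.77-fold, adjusted p = 0.0477). The call of g12 was lost whichever library was left out (adjusted p up to 0.154), and so was that of g13 (up to 0.238), which was also lost with no filter (adjusted p = 0.0729) and with a replicate block (adjusted p = 0.106). Of the unigenes that did not pass, g10, without a description, was at 0.806 ± 0.233 and 0.145 ± 0.156 CPM (adjusted p = 0.0750), and passed without male 1 (log2 3.72, adjusted p = 0.0346). Olfactory receptor 7 (g14) was at 1.71 ± 0.117 and 1.22 ± 0.448 CPM (adjusted p = 0.644), the receptor of the cluster with the smallest difference, and g2 at 0.555 ± 0.220 and 0.324 ± 0.274 CPM (adjusted p = 0.718). The 2 unigenes under the filter are short pieces without a description. One of them, g9, had 12, 9 and 16 counts in females and 0, 2 and 0 in males, which gives a ratio of 17.7 (counting interval 4.58 to 152), and it passed when no filter was used (adjusted p = 0.0345) or male 2 was left out (adjusted p = 0.0425). The other, g6, had 16 counts in females and 8 in males.

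**Figure D3:**
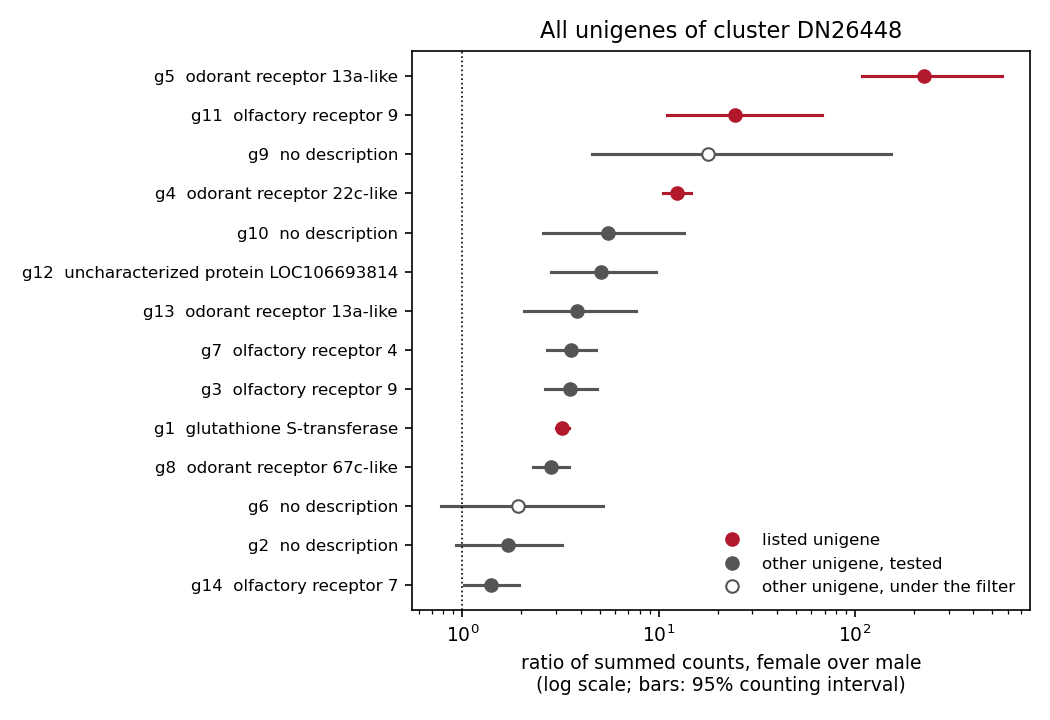
Ratio of the summed counts of the female libraries to those of the male libraries, scaled for library size, on a log axis, for all 14 unigenes of the cluster, with exact 95% counting intervals that do not cover the spread between libraries. Listed unigenes are red, and open circles are unigenes under the filter. All 14 points lie above 1, from 1.40 for olfactory receptor 7 to 224 for the odorant receptor 13a-like unigene g5, and the intervals of g2 and g6 reach below 1.

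Receptor copies can share reads, and the estimated counts show where reads were divided. In 8 of the cluster's 14 unigenes (57.1%) at least 1 library had an estimated count that was not whole by more than 0.005, against 13.9% of all unigenes and 28.5% of the 130 odorant receptors outside the cluster. Among the listed unigenes these were g1 in 6 libraries and g11 in 1, while g4 and g5 had none. A sum over all 14 unigenes does not depend on how reads are divided among them, while a sum over the receptors still depends on reads divided with the other 6. The 8 receptor unigenes together had 1755, 1588 and 1448 counts in females and 155, 148 and 193 in males, and the log2 difference of this sum was 3.22. With all 14 unigenes, and so with the transferase, it was 2.40.

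**Figure D4:**
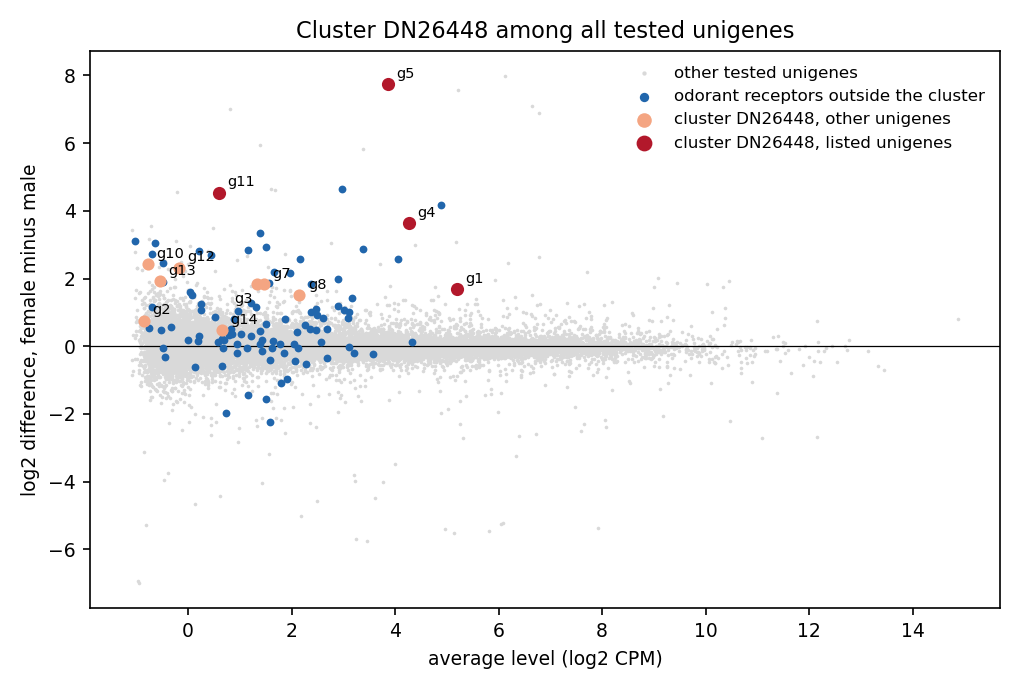
Log2 difference between female and male heads against the average level in log2 CPM for all 21196 tested unigenes (grey), odorant receptors outside the cluster (blue) and the 12 tested unigenes of cluster DN26448 (red where listed, light orange where not). The 12 points all lie above 0, with g5 at 7.74 at the top and olfactory receptor 7 (g14) at 0.48 as the lowest.

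The listed unigenes were picked for their difference between the sexes and named by their descriptions. Their shared receptor annotation is therefore given as a description, not as an independent trait. Of the 3 listed receptors, g5 is 1251 bases long, g4 781 and g11 764, beside a median of 968.5 bases over the 130 receptors outside the cluster. All 3 have their best hit in a wasp of the genus Microplitis, as do 84 of those 130. The insect odorant receptor domain of the Pfam database (7tm_6) was assigned to g4 and g5, to g3, g7, g8 and g12, and to 96 of the 130. Both g4 and g5, with g7 and g8, belong to 1 orthologous group (ENOG4110SSK), which holds 6 of the 130 receptors outside the cluster. The other named group in the cluster's receptors, ENOG410ZQQ6, was given to g3 and g12.

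The transferase unigene stands apart in its structure. It is 3981 bases long, the longest of the cluster, and joins 11 assembled transcripts, where the others have 1 to 4. The ratio of count to TPM gives the effective length over which the authors' reads were counted. For unigenes with a single transcript this ratio followed the deposited length minus 236 to 249 bases in each library, with a median deviation of 0.01%. For g1 it corresponded to 698, 779 and 780 bases in females and 783, 745 and 720 bases in males, or 18.9% of its length on average over the 6 libraries. Among 472 unigenes with 10 or more transcripts the median was 59.6%, and 1.91% had a lower value than g1. Its reads were therefore assigned mostly to transcripts far shorter than the one that gives the unigene its length, in similar proportion in both sexes. Which of the 11 transcripts carry the transferase sequence was not analysed here.

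**Figure D5:**
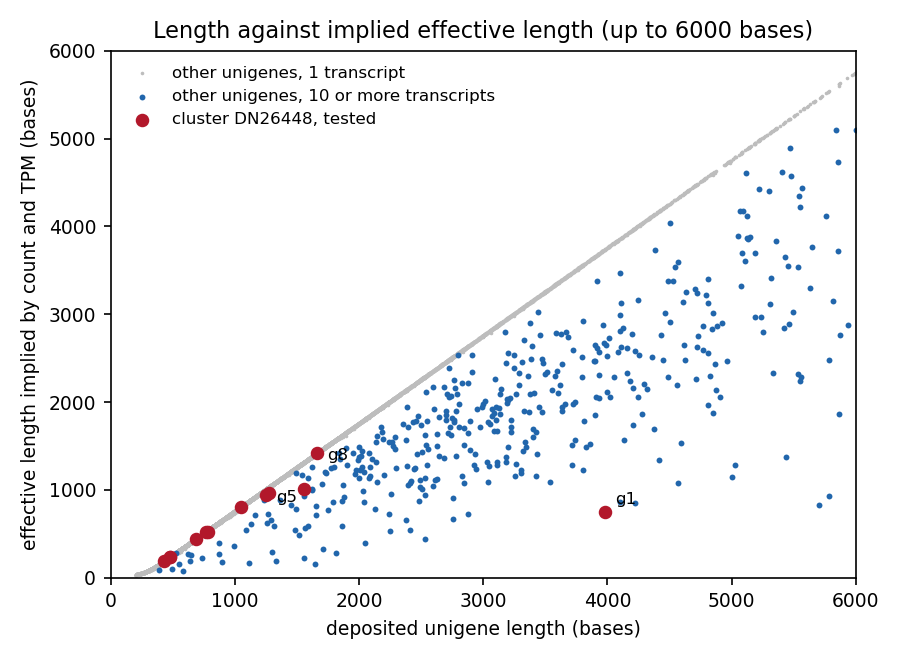
Effective length implied by count and TPM, as a mean over libraries, against the deposited unigene length, both in bases, for single-transcript unigenes (grey), unigenes with 10 or more transcripts (blue) and the tested unigenes of cluster DN26448 (red). Single-transcript unigenes form a line, most unigenes of the cluster lie on or near it, and g1 lies far below it at 3981 bases of length.

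Beyond the cluster, most receptors past the test were also higher in females. Of 93 tested odorant receptors outside the cluster, 29 passed with the higher level in females, 5 with the higher level in males and 59 did not, with a median log2 difference of 0.50. Over all tested unigenes 1.69% passed with the higher level in females and 1.11% with the higher level in males. The pair with the smallest unadjusted p higher in females belonged to another assembly cluster, DN26229. One is an odorant receptor 13a-like unigene (TRINITY_DN26229_c1_g14) at 56.2 ± 11.5 and 3.10 ± 0.798 CPM (18.1-fold, adjusted p = 1.07e-06). The other is an olfactory receptor 4 unigene (TRINITY_DN26229_c1_g8) at 28.1 ± 2.58 and 4.71 ± 0.903 CPM (5.96-fold, adjusted p = 5.36e-06), a value it shares after adjustment with odorant receptor 67a-like (TRINITY_DN25583_c0_g1). The pair higher in males was odorant receptor 46a, isoform A-like (TRINITY_DN26562_c0_g6; 1.01 ± 0.287 and 4.82 ± 0.264 CPM, adjusted p = 0.000621) and odorant receptor 35 (TRINITY_DN4472_c0_g1; 1.38 ± 0.119 and 4.11 ± 0.326 CPM, adjusted p = 0.00233).

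Cluster DN26448 was 1 of 8 assembly clusters with at least 3 tested receptors. In DN26229 6 of 8 tested receptors passed, each with the higher level in females, and its receptors summed to 139 TPM in females and 23.9 TPM in males, beside 136 and 12.2 TPM for DN26448. In DN25583 3 of 4 were higher in females and 1 in males. In DN26110 none of 4 passed the test, with log2 differences from -0.52 to 0.86. With the higher level in females, 2 of 4 passed in DN24724, 1 of 4 in DN26771 and 0 of 3 in DN25377. In DN26562 1 of 3 passed, with the higher level in males. As a scale, 29 of all 93 tested receptors outside DN26448 were called for females and 5 for males. The matching background over the series was 1.69% and 1.11%. The share of receptors past the test thus varied from cluster to cluster, with few receptors in each, and differences between clusters were not tested.

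Of 22 tested glutathione S-transferases outside the cluster, 1 passed edgeR's test, with the higher level in females, and none was higher in males (0 at an unadjusted p under 0.05 and 0 by DESeq2), with a median log2 difference of 0.06. Over all tested unigenes 1.69% were higher in females, so 1 of 22 in this mixed list is near the background. It was the E14-like transferase (TRINITY_DN25517_c0_g4), at 309 ± 17.2 and 215 ± 3.11 CPM (1.44-fold, adjusted p = 0.00248). The next smallest p among those higher in females was that of glutathione S-transferase 1 (TRINITY_DN25207_c2_g6; adjusted p = 0.338). The smallest p among those higher in males belonged to transferases A4 (TRINITY_DN531_c0_g1; adjusted p = 0.639) and omega-1 (TRINITY_DN23983_c0_g1; adjusted p = 0.737), both with a best hit in the mouse. Of the 27 transferases of this list, 20 had their best hit in a mammal, and g1 was not among such hits. The 7 with another best hit were all tested, and the E14-like transferase was the 1 called among them. Their median log2 difference was 0.17, and 7 unigenes are too few to set against a share of all unigenes.

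Among the unigenes most like the listed receptors in pattern were other receptors. Likeness was Pearson's r of log2(CPM + 1) over the 6 libraries, among 12765 tested unigenes with an informative description. As the libraries fall into 2 sexes, such an r mainly reflects a difference between them and is given as a description. For g5 the closest were the transcription factor Sp9-like (TRINITY_DN26588_c1_g17; 116 and 42.4 CPM in females and males), olfactory receptor 58 (TRINITY_DN26229_c1_g6; 4.79 and 0.618 CPM) and Orco, all with r between 0.998 and 0.999. For g4 they were Bardet-Biedl syndrome 5 protein (TRINITY_DN23104_c0_g1; 35.8 and 18.9 CPM), part of a complex that carries membrane proteins to cilia, the olfactory receptor 4 unigene of DN26229 and olfactory receptor 58. For g11 they were a further olfactory receptor 4 (TRINITY_DN10129_c0_g1), odorant receptor 13a-like (TRINITY_DN25784_c0_g4) and odorant receptor 67a-like (TRINITY_DN25583_c0_g1). For g1 they were not receptors. They were a vesicular glutamate transporter 2-like unigene (TRINITY_DN25712_c0_g1; 68.6 and 25.9 CPM), which loads glutamate into synaptic vesicles, Bardet-Biedl syndrome 5 protein, and WD repeat, SAM and U-box domain-containing protein 1 (TRINITY_DN24916_c0_g1; 173 and 82.3 CPM).

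Marker lists of other tissues were read beside these results, where 1.69% of all tested unigenes were higher in females and 1.11% higher in males. Of 36 tested muscle unigenes 5 passed edgeR's test, all with the higher level in males, and the 41 matched summed to between 19551 and 27448 CPM in females and between 30896 and 35670 CPM in males. Of 14 tested neuron unigenes 1 was higher in females, and the list summed to between 1088.3 and 1135.6 CPM in females and between 1005.9 and 1088.1 CPM in males. Of 7 unigenes named for yolk or egg shell 2 were higher in females, with sums of 2858 to 3136 CPM in females and 2531 to 3355 CPM in males. Of 21 tested venom unigenes 2 were higher in males, with sums of 8063 to 8600 CPM in females and 7317 to 7743 CPM in males. No unigene of these lists was at 0 in all libraries, but the same held for all 41986 unigenes of the series. The muscle sum was thus lower in every female library than in every male one, and the venom and neuron sums were higher, the neuron sum by the narrowest margin. A best hit in a mammal was found for 9 of the 41 muscle unigenes and 4 of the 20 matched neuron unigenes. The same held for 1 of the 7 yolk or egg shell unigenes and 0 of the 29 matched venom unigenes. All were kept in the sums. The part of these lists in the differences of the cluster was not tested.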

How the data were processed

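Per the labels' protocols, paired-end poly(A) libraries of heads were cleaned with Cutadapt and assembled de novo with Trinity 2.4.0. The read counter is not given in the sources used here. The deposited table holds expected counts, which the authors did not normalize, and TPM per library, per the file headers. The authors' deposited log2 fold change, p-value and FDR were not used for any result, and sample columns matching no sample numbered 0.

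Expected counts were rounded and tested with edgeR 4.0.16 in R 4.3.3 (TMM, filterByExpr with a minimum count of 10 and total of 15, quasi-likelihood test, Benjamini-Hochberg threshold 0.05). DESeq2 1.42.0 was an alternative. Of 41986 unigenes 21196 were tested, with a biological coefficient of variation of 14.5%. Standard errors are the log2 difference over the square root of F. Counting intervals are exact, at 95%, and cover counting error only. Steps were tested on simulated counts. Python 3.11.15 made tables and plots.

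The members, the lists (words in descriptions) and the named unigenes were chosen with earlier results of these data known. The named unigenes are the whole cluster, Orco, the 2 of smallest p per list and direction, and the 3 most alike per member.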

Additional observations from a re-analysis of the deposited data

How the results depend on the processing

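The log2 differences of the 4 listed unigenes and of the summed receptors kept their sign under every alternative run, namely a replicate block, leaving out each library, a stricter filter (50 counts in 3 libraries), no filter, DESeq2's Wald test and its size factors, and for the 4 also the TPM ratio with a pseudocount of 0.1. The values that moved by more than the spread between libraries were g5 at 7.26 and g11 at 4.21 by the TPM ratio, where the pseudocount is of the size of the male values, g11 at 4.92 without male 1, and the sum at 2.40 with all unigenes of the cluster. Leaving out a library gave 7.42 to 7.95 for g5, 3.48 to 3.78 for g4, 4.25 to 4.92 for g11, 1.63 to 1.80 for g1 and 3.11 to 3.33 for the sum. With the stricter filter g11 had no value. Of the other unigenes of the cluster, 3 to 4 passed with a library left out (g3, g7 and g8, with g10 without male 1 and g9 without male 2), 3 with the stricter filter (which tests only 3 of them) and 5 in the full data; g3, g7 and g8 passed in all 11 refits. Over all unigenes the count of 593 ran from 357 (without male 2) to 688 (without female 1) with a library left out. It was 819 with DESeq2's Wald test and 271 for a log2 difference of at least 1. Receptors outside the cluster gave 22 (without male 2) to 32 calls with a library left out, against 34. No transferase outside it passed with a log2 difference of at least 1 (0 against 1; 2 had an unadjusted p under 0.05 and 1 passed DESeq2). Same-numbered libraries of the 2 sexes did not deviate together (r = -0.01, -0.06 and -0.02), and female 1 correlated best with male 2. This gave no sign that the numbers pair the libraries, but it cannot exclude pairing, and the labels do not say. With the replicate block 576 unigenes passed, and 4 of the other unigenes of the cluster. Counts of 1 to 3 per male library limit what can be said of g5 and g11 in males.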
